A study of Bos taurus with 2 samples.

Results

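The set described here is the 225 brightest probes of a whey supernatant, out of 43653 bovine probes on the array. A probe was a member where its processed fluorescence signal on the supernatant array was above 1000, with spots marked as outliers left out. Members made up 0.515% of the probes. The members were chosen by their supernatant signal, so their brightness in that fraction is a description and no finding. Raw milk of Holstein cows was the source of both fractions. Whey was spun at 10000 g for 90 min, a speed given as in the labels. The exosome sample was the pellet, taken up in PBS and spun again so that it was washed 2 times in all, and the supernatant sample was the liquid collected above the pellet. RNA of 3 milk samples was mixed equally before labelling, and 100 ng of it was labelled with Cy3 for each of the 2 arrays. Each fraction therefore has 1 array of a pool, with no replicate, and no test between fractions was possible. Signals refer to a fixed mass of RNA, so the number of vesicles and the RNA in each of them cannot be told apart.

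Exosomes are small vesicles that cells release, and milk carries them together with RNA of the mammary epithelium and of other cells. Agilent arrays of this kind carry 60-base oligos in the sense of the transcript, and labelled copy RNA binds to them by base pairing. Cattle genomes hold many copies of interspersed repeats, short and long, in both orientations and often in the ends of messenger RNAs. A probe placed in such a copy can bind RNA from many places. Ribosomal RNA is the bulk of total RNA in cells. No repeat library or ribosomal reference was used here, so no member was assigned to a repeat family.

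Sequence separated the members into 3 classes. Of the 225 members, 111 held a word of 16 bases that also lay, on either strand, in probes for 2 or more other genes. Another 38 had no such word but a run of 5 or more C or a GC content of 60% or more, and 76 had neither. Words, runs and classes were chosen after the values had been seen. The sequences below are stretches of 30 bases of the members, written 5′ to 3′ as on the array, since they carry this division.

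The first word is shown in 4 members of the largest group linked by 16 bases, with the shared 16 bases in capitals. H2BC8, named H2B in the array file, holds it as the reverse complement.
CDNF: tgggttgCCATTTCCTTCTCCAAtgcatga
DSEL: tgggtcgCCATTTCCTTCTCCAAtgcatga
ZNF674: tgggttgCCATTTCCTTCTCCAAaagtgtt
H2BC8: tcatgcaTTGGAGAAGGAAATGGcaacccg
In build HGSC Btau_3.1 the CDNF probe lay at chr13:29104378-29104437 on the minus strand, the DSEL probe at chr24:9839830-9839888 on the plus strand and the H2BC8 probe at chr23:31776116-31776175 on the plus strand. The ZNF674 probe lay on an unplaced contig. Whether a probe lies in coding sequence or in a UTR was not analysed here.

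The second word is shown in 3 members of the next largest group, with MBL2 holding the reverse complement. Capitals mark the 16 shared bases.
AGTR1: gcatgagGTGGCCAAAGTATTGGagtttca
PIGM: atgatGTGGCCAAAGTATTGGagtttcagc
MBL2: tgaaactCCAATACTTTGGCCACctgatgt
These probes lay at chr1:121429546-121429605 on the minus strand for AGTR1, at chr3:10618910-10618964 on the plus strand for PIGM and at chr26:6465705-6465764 on the plus strand for MBL2.

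Another word was common to very bright members, and all 3 shown hold it in the same orientation. Capitals again mark the 16 shared bases. LOC781977 is SECTM1 in the array file.
FBXO16: atttggcaaAACCAATACAATATTGtaaag
PFDN5: atggcaaAACCAATACAATATTGtaaagta
LOC781977: atgacaaAACCAATACAATATTGtaaagtt
The FBXO16 and PFDN5 probes both lay on chromosome 5, at chr5:103824099-103824158 and chr5:29670798-29670857 on the minus strand, and the LOC781977 probe at chr19:51930976-51931035 on the plus strand.

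Members with dinucleotide repeats and with runs of C are shown next, with the repeat or the longest run of C in capitals.
SFN: tgaaaGTGTGTGTGTGTGTGTGTGcctgtg
S1PR2: cTGTGTGTGTGTGTGTGTGTGTGTGTGTaa
H1FX: gcgagcccccagCCCCCCggcgcccccgcg
INHBC: tccggcgCCCCCtctctctgctctactatg
TC439973: CCCCCCCCacccccccgccccagcagccag
The H1FX probe lay at chr22:60978193-60978252 on the minus strand, and TC439973, a consensus transcript with no gene symbol, held the longest run of C of the set, 8 bases.

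Finally, the probe made from an 18S ribosomal RNA (rRNA) record is given whole. The first 30 bases of each of the 3 ITPR1 members follow, with the part that both overlapping probes share in capitals.
18S rRNA (DQ066896): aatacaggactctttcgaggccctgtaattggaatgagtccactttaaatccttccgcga
ITPR1 at 8590: cagctccaATAGCGTATATTAAAGTTGCTG
ITPR1 at 8598: ATAGCGTATATTAAAGTTGCTGCAGTTAAA
ITPR1 at 8726: tttagctgagtgtcccgcggggcccgaagc
The array file places these 3 probes on chromosome 22, minus strand, at chr22:22199235-22199294, chr22:22199227-22199286 and chr22:22199276-22199334. The first 2 of them share 52 bases, so they are not independent measurements. The placement of the probe at 8726 overlaps that of the probe at 8590. Yet these probes share no 16 bases and lie apart in the transcript, so this placement is given unchecked.

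Members spanned a wide range on the supernatant array, from 1014 to 175158, with a median of 4228. The median over all probes there was 2.49. Signals above 10000 were held by 63 members, and 62 lay at 2000 or below. The 225 members carried 84.8% of the summed signal of the supernatant array. On the exosome array the 225 brightest probes carried 46.7%. Just inside the threshold lay BGLAP (1014 in the supernatant), TC469004 (1014) and IPO5 (1021), and just outside lay TC479010 (988), MAPKAPK2 (981) and DCN (975). Members were spread over the array surface, with 53 to 60 in each of 4 equal areas, and none was saturated. Each sat on a single spot per array. The scanner software's own error was, for example, 2924 for the tag BE665532 at a signal of 29236. Among 9 other probes printed on several spots and well above background on both arrays, the spread of a single-spot log2 difference between the fractions was 0.16 (SD between spots). Those spots repeat a measurement of the same RNA, and the brightest such probe reached 689 in the supernatant.

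On the exosome array all 225 members were well above background, against 58.5% of all probes. Their exosome signals ran from 604 to 315266 with a median of 9341, and the median over all probes was 28.0. Of the members, 201 lay above the 90th percentile of the exosome array. Only 22 were among its 225 brightest probes, the dimmest of which had 69423 there. Members were thus bright in both fractions, but they were mostly different probes from those that led the exosome array.

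Signals were compared first as deposited, with no scaling between arrays. The typical member had nearly equal signal in both fractions, with a median exosome minus supernatant difference of 0.29 on the log2 scale. The median over the 5303 probes well above background on both arrays was 3.38. Without scaling, 78 of the 225 members were brighter in the supernatant, and 7.86% of those 5303 probes were. Within 2-fold lay 164 members, against 18.4% of those probes, and 54 members were over 2-fold brighter on the exosome array, against 80.2%. Brightness in the supernatant chose the members and enters this difference, so nothing is read from these counts. The direction depended on the scaling. After subtraction of each array's 75th percentile over the probes well above background on both, which lowered every difference by 5.45, the median of members was -5.16, and 219 of 225 were brighter in the supernatant, against 72.1% of the probes. With the array's 8 spike-in probes as the reference it was -1.98. The order of members among themselves is the same under these shifts, and the values below are unscaled.

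Sequence shared with probes of other genes was more frequent among members than over the array. Words of 16 bases shared with 2 or more other genes were held by 49.3% of members and by 3.20% of all probes. With 1 probe kept per gene or shared stretch the share of members was 29.3%. The array was not reduced in this way, so no like share of all probes stands beside it. For words of 14 bases the share of members was 78.2%, against 44.6% of all probes, and for words of 20 bases 32.4%, against 0.87%. Among the other 5505 probes well above background in the supernatant the share was 4.18%, and among the 225 brightest exosome probes it was 7.11%. Sharing with 10 or more other genes was seen in 29 members and in 124 probes of the whole array, so 23.4% of such probes were members. Of those 124 probes 37.9% were well above background in the supernatant, against 12.4% of probes with no word in another gene, and the median signals there were 5.96 and 2.47. Over the array, the median difference between fractions was 3.46 for probes with no word in another gene and 3.73 with words in 1. It was 1.41 with words in 2 to 4 other genes, 0.46 with 5 to 9 and 0.11 with 10 or more. These medians cover 4263, 716, 225, 55 and 44 probes, counting only probes that passed the background call in both fractions. Members, chosen for a high supernatant signal, were 86, 28, 54, 28 and 29 of them, so nothing is read from the lower medians.

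The 111 members with shared words had the highest median of the 3 classes in the supernatant, 9013. On the exosome array their median of 10503 was below the 27817 of the members with a run of C or a high GC content. They supplied 52 of the 63 members above 10000 and 14 of the 62 at 2000 or below. Their median difference was 0.08, with quartiles of -0.27 and 0.51. All but 3 of them, 108 of 111, were within 2-fold between the arrays. The exceptions were CSN1S1, brighter on the exosome array, and CD3D and NUDT7, brighter in the supernatant. Across these 111 probes the log2 signals of both arrays had a Pearson r of 0.86, given as a description since many share sequence and all share the same pair of arrays.

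Many members repeated one another. At 25 or more identical bases, 78 members were linked to another member in 19 groups. The largest group had 23 members of 12 names, among them ACP3 (a prostatic acid phosphatase, ACPP in the array file), CDNF (a secreted neurotrophic factor), DSEL (a dermatan sulfate epimerase-like protein), FGF2 (a fibroblast growth factor) and IFT80 (a part of ciliary transport). Its supernatant signals ran from 3650 to 51587. These genes have no common function that the files give, and their probes share letters. A second group of 11 members of 10 names included AGTR1 (an angiotensin receptor), MBL2 (a mannose-binding lectin), PRNP (the prion protein) and CWC25 (a splicing factor), at 3024 to 25016. The third had 5 members, ART1, C3H1orf109, MOCS3, RUBCNL and the clone BC126690, at 5535 to 20722. In these 3 groups every member was within 2-fold between the arrays.

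Both orientations of a word gave bright probes. The words shown were picked within groups of linked members, as those held by the most genes. The share of members among the probes holding them is therefore high by choice and no finding. Of all probes with a word in 2 or more other genes, 7.96% were members. The word shown for CDNF was held by 13 probes of 9 genes on the whole array, and all 13 were members. In the orientation written for CDNF, 5 probes had supernatant signals of 16637 to 51587, with a median of 25508. In the reverse complement, 8 probes had 6471 to 21614, with a median of 15334. The word shown for AGTR1 was in 8 probes, all members, with 3 as written there at 11924 to 25016 and 5 reversed at 3024 to 14719. These ranges overlapped in both cases. The word shown for FBXO16 differed in this respect. It was in 5 probes, of which 4 in one orientation were members at 7402 to 68391, while the only probe with its reverse complement had 26.3 in the supernatant.

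The FBXO16 probe belonged to a wider group of 8 members linked at 16 bases, and these held 4 of the 5 highest supernatant signals. DV851339, an expressed sequence tag with no gene symbol, was the brightest probe of the supernatant at 175158, with 118104 on the exosome array. POLR2K, a small subunit shared by the nuclear RNA polymerases, had 168040 and 155021. TSPYL4, of the nucleosome assembly family, had 93916 and 93539. FBXO16, an F-box protein of ubiquitin ligases, had 68391 in the supernatant and 46209 on the exosome array. The others were C3H1orf87 (42053 and 31071), PFDN5, a prefoldin chaperone subunit (40135 and 33553), LOC781977 (20380 and 16136) and NUDT7, a peroxisomal coenzyme A hydrolase (7402 and 3664). All 8 had the higher signal in the supernatant without scaling, with differences from -1.01 to -0.0058. Those of TSPYL4 (-0.0058) and POLR2K (-0.12) were smaller in size than the SD between spots, 0.16.

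Several genes with a bright member had other probes that were not well above background in the supernatant. The 124 named genes with a member had 214 probes that were not members. Their median supernatant signal was 2.84, against 2.49 for all probes, and 22.0% were well above background there, against 13.1% of all probes. On the exosome array 63.1% of them were, with a median signal of 34.5, against 58.5% and 28.0 for all probes. For POLR2K the other 2 probes had 5.37 and 5.99 in the supernatant and 594 to 762 on the exosome array. CDNF had a second probe at 1.95 in the supernatant and 2.57 on the exosome array. TLR2, a receptor for bacterial lipoproteins, had its member at 45159 in the supernatant and 53320 on the exosome array. Its other 3 probes lay between 1.85 and 4.03 in the supernatant and between 8.82 and 260 on the exosome array. IL1RL1, an interleukin receptor, had 1 member at 40261 and 37320 and another at 9239 and 12110. Its remaining probe had 2.10 and 2.60. None of the probes of these 4 genes that were not members was well above background in the supernatant. By contrast, the other probes of FBXO16 (12.5 and 23.5) and of PFDN5 (59.1, with 24983 on the exosome array) were well above background there. Levels of different probes are given side by side only, since binding differs between probes and the members were chosen for a high supernatant signal. TNS4, a tensin of cell adhesions, had 28595 and 30167 at its member and 1.88 and 6.87 at its other probe. Another of the 15 brightest members was the tag BE665532, with 29236 and 31407 and no 16-base word in any other gene's probes.

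Genes with 3 or more members mostly had them close together in the transcript, though not always in the genome build. There the ACOT11 members lay on chromosomes 2, 3, 13 and 19 and an unplaced contig, and those of PGM2 on chromosomes 2, 4 and 6. The ACP3 member with 13486 in the supernatant lay on chromosome 2, and the CWC25 member with 3478 on chromosome 29, away from the others. MTMR2, a phosphoinositide phosphatase, had 8 members at 1021 to 12036 among its 10 probes, all starting between bases 4068 and 4595 of the transcript. ACOT11, an acyl-CoA thioesterase, had all its 7 probes in the set, at 2591 to 29213. ACP3 had 7 of 8, at 6471 to 19595, all starting between bases 1881 and 1895, and its last probe had 2.16. CWC25 had 7 of 8, at 1222 to 15369, and the remaining probe had 2.19. LOC615589 had 5 of 5 at 1375 to 4316. AGTR1, DSEL and IFT80 had 4 members each, with signals of 4837 to 39813, 7923 to 30503 and 3650 to 16637, and no other probe of these 3 genes exceeded 2.78. PGM2, a phosphoglucomutase, had 3 of 3 at 1599 to 4166, and RUBCNL, an autophagy regulator named KIAA0226L in the array file, had 3 of 7 at 1854 to 14538. Within every one of these genes except ITPR1 the members' differences lay between -0.77 and 1.29.

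Dinucleotide repeats were rare on the array and bright where they occurred. Only 21 probes held 7 or more CA or TG units in a row on either strand, and all 21 were well above background on both arrays. Their median signals were 806 in the supernatant and 936 on the exosome array, with a median difference of 0.01. Members were 8 of them, or 38.1%. SFN, an adaptor protein of epithelial cells, had 5344 and 9070 on the supernatant and exosome arrays. S1PR2, a receptor for sphingosine phosphate, had 4060 and 3730, and TC445578, with no gene symbol, had 6106 and 6638. EPHB3, SCARA3, DUSP7 and ATOSB were among the remaining members of this kind.

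Runs of C, and not of G, were more frequent in members than on the array. Runs of 5 or more C were in 15.1% of members, 3.22% of all probes, 10.1% of the other probes well above background in the supernatant and 7.11% of the brightest exosome probes. For runs of 4 or more C these shares were 26.2%, 13.0%, 30.4% and 17.8%, so members did not exceed the other probes detected in the supernatant. For runs of 6 or more C they were 5.33%, 0.68%, 2.45% and 2.67%. Runs of 5 or more G were in 1.33% of members, that is in SLC22A5, FBXL14 and TC451581, against 2.88% of all probes and 8.54% of the other probes well above background in the supernatant. No member had a run of 6 G, though 62.5% of the 251 array probes with such a run were well above background in the supernatant. Runs of 5 or more A were in 12.4% of members and 11.9% of all probes, and runs of T in 8.44% and 10.8%. The median GC content was 45.0% in members and over the array. At the upper end the sets parted, since 8.0% of members and 0.43% of all probes had a GC content of 70% or more.

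The 38 members with a run of C or a high GC content had a larger median difference than those with shared words. Their median was 2036 in the supernatant and 27817 on the exosome array, a median difference of 3.80. The median of the probes well above background on both arrays was 3.38, and that of this class lay 0.43 above it. Brightness in the supernatant chose the members and enters their difference, so nothing is read from this comparison. The difference of this class exceeded 4-fold towards the exosome array in 34 of 38 members. H1FX, a linker histone, led with 22496 in the supernatant and 212346 on the exosome array, at a GC content of 86.7%, and its other probe had 4.98 and 46.9. LOC100851031 had 15074 and 165788 at the same GC content. INHBC, an inhibin subunit, had 9991 and 135428, and KLF13, a Krüppel-like transcription factor, had 6289 and 77484 at 90.0% GC. CEBPA, a transcription factor of fat and myeloid cells, had 1582 and 27206. The only member of the class that was brighter in the supernatant was MRPS28, a mitochondrial ribosomal protein, at 4901 against 3495. Pearson's r between the log2 signals of both arrays was 0.56 over these 38 probes.

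The remaining 76 members were mixed. Their median was 2829 in the supernatant and 3628 on the exosome array, with differences from -2.99 to 8.13 and a median of 0.20. Within 2-fold lay 53, and 10 were over 4-fold brighter on the exosome array.

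The probe of the 18S rRNA record and those named ITPR1 were in this class. The probe made from the partial 18S rRNA record had 2268 in the supernatant and 246106 on the exosome array, a difference of 6.76. The 3 ITPR1 members, named for a calcium channel of the endoplasmic reticulum, had exosome signals in the same range. The probe at transcript base 8590 had 8384 in the supernatant and 250797 on the exosome array, the one at 8598 had 17102 and 315266, and the one at 8726 had 172823 and 247194. The 8598 probe was the brightest of the whole exosome array. The other 4 ITPR1 probes lay at 2.23 to 6.68 in the supernatant and 2.72 to 44.6 on the exosome array. None of these 4 was well above background in the supernatant, and 1 was on the exosome array. The match of the 3 members to other transcripts, ribosomal RNA included, was not tested.

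Milk protein genes were bright in the exosome pellet. Caseins and whey proteins had 41 probes of 14 genes on the array, and 3 of these, 7.32%, were members, against 0.515% of all probes. The background call was passed by all 41 on the exosome array and by 25 in the supernatant, where 13.1% of all probes did. LALBA, alpha-lactalbumin, had 1117 in the supernatant and 313295 on the exosome array, the largest difference of the set at 8.13. CSN1S1, alpha-s1 casein, followed at 1171 and 253514, a difference of 7.76. PAEP, beta-lactoglobulin, had 24542 and 288102 at its member and 186 and 349 in the supernatant at its other 2 probes, which had 233849 and 222537 on the exosome array. The other 2 LALBA probes had 19.4 and 12.6 in the supernatant and 222467 and 239 on the exosome array. Other large differences towards the exosome array were those of WIPI2, an autophagy protein (7.01), LOC100174927 (6.28), SSR4, a subunit of the translocon-associated complex (5.82), TH, tyrosine hydroxylase (5.43), and LOC789205, named IGLL1 in the array file (5.16).

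At the opposite end were members clearly brighter in the supernatant. TREML2, a receptor of myeloid and lymphoid cells, had 5576 in the supernatant and 702 on the exosome array, a difference of -2.99. TMEM107, a protein of the ciliary transition zone, had 2300 and 624 (-1.88). CD3D, a chain of the T cell receptor complex, had 2437 and 888 (-1.46), while its other 2 probes had 1.99 and 4.11 in the supernatant and 2.45 and 2.64 on the exosome array. LOC100139804 (-1.36), PDZK1IP1 (-1.24), NUDT7 (-1.01), RPLP2 (-1.01) and NLGN3 (-0.81) completed the lowest 8. Unscaled, 7 members were over 2-fold brighter in the supernatant, and 1.4% of probes well above background on both arrays were. RPLP2, a protein of the ribosomal stalk, had 1236 and 615 at its member, and its other 4 probes had 37.9 to 516 in the supernatant and 36657 to 187138 on the exosome array.

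The other gene groups were counted in the same way, beside the 0.515% of all probes that were members. Cytosolic ribosomal proteins had 306 probes on the array, 209 of them well above background in the supernatant, and only that of RPLP2 was a member. Histones gave 2 members of 82 probes (2.44%), H1FX and H2BC8, and the list of transcription factors, drawn up by the start of the symbol in the reference table or the array file and not holding the members CEBPA, PRDM15, PHOX2A and SREBF2, gave 7 of 822, namely ZNF674, SP140L, KLF13, ZNF266, ZSCAN31 and 2 probes of ZNF33B. Leukocyte markers gave CD3D alone of 37 probes (2.70%), and red cell and platelet markers gave HBA, a haemoglobin chain, at 1138 in the supernatant and 23456 on the exosome array. Milk fat genes, translation factors, mitochondrially encoded genes, cytoskeleton genes, glycolysis and heat shock genes, and mammary and myoepithelial markers had no member, among 59, 68, 24, 52, 67 and 22 probes. With so few probes a count of 0 is near the share of the whole array.

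Counted by probe, members without a gene symbol were about as frequent as on the array. They numbered 51, or 22.7%, against 23.5% of all probes. The share was 23.8% of the other probes well above background in the supernatant, and 9.33% of the brightest exosome probes. With 1 probe kept per gene or shared stretch it was 30.1% of members, and the array was not reduced in this way. Among the 51 were 17 consensus transcripts, 16 LOC entries, 10 single accessions, 6 probes with only an array identifier and 2 Ensembl transcripts. The remaining 174 members carried 124 gene symbols.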

How the data were processed

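Whey exosome pellet and supernatant RNA were each hybridised to 1 bovine 1-colour Agilent array. Per the file headers, the deposited intensity values are processed signals with background subtracted by the scanner software and with no scaling across arrays, from Agilent Feature Extraction 10.7.3.1, which the submitters' processing notes also name. The authors' deposited log2 table equals the log2 of these signals within 0.001 for the 43602 single-spot probes. Coordinates are those of build HGSC Btau_3.1, per the file headers. One probe had no usable exosome spot.

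Signals were averaged over spots without outlier marks. Well above background is the scanner's own call. A difference is log2 exosome minus log2 supernatant. Identical words, runs and GC content were computed from the probe sequences with Python 3.11.15 and checked on simulated sequences. Symbols were updated through the RefSeq gene table of a later assembly, which held the accessions of 26740 probes, 155 of them members. The normexp and quantile alternatives used limma 3.58.1 in R 4.3.3. No test could be run, and the number of arrays limits the precision.

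Probes were named by rule: the 15 brightest members, the 8 lowest and 8 highest differences, up to 6 members per gene list, 3 probes on each side of the threshold, the 3 largest groups sharing 25 bases, genes with 3 or more members, and the 3 members furthest from their gene's other probes. Further members were named after their values were seen. The members and lists were chosen with earlier results of these data known.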

Additional observations from a re-analysis of the deposited data

How the results depend on the processing

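No paired analysis was possible because each fraction has 1 array. Of 45 alternative values, 27 kept their direction and size. The rule was wide for counts. Thus 163 or 321 members against 225, and 180 against 219 brighter in the supernatant, counted as kept. A share counted as kept inside the binomial confidence interval of the main share, and a median log2 difference within the spread between spots. That interval took the members as independent, though many share sequence, so it served as a rule of size and not as a test. The number of members stayed between 163 and 321 for thresholds of 2000 and 500 and was 222 to 229 under other background corrections, outlier handling and the authors' deposited table. The median difference of members, -5.16 after the 75th percentile scaling, turned to 0.29 without scaling, where 78 and not 219 members were brighter in the supernatant, because that scaling subtracts a constant. It was -3.20 with the median over all probes, -1.98 with spike-in probes, -4.20 after normexp correction and -5.00 at a threshold of 500. Runs of 4 G were in 8.0% of members and runs of 6 G in 0%. Keeping 1 probe per gene or shared stretch left 133 members. Of these, 30.1% had no gene symbol, 29.3% held a word shared with 2 or more other genes and 24.1% a run of 5 C. The array was not reduced in this way, so no like shares of all probes stand beside them. Linked members numbered 41 at 30 bases and, chosen after seeing the data, 132 at 16. Also chosen after seeing the data, the share with shared words was 39.6% and 59.5% at thresholds of 500 and 2000. It was 78.2% for words of 14 bases, which 44.6% of all probes hold, and 32.4% for words of 20 bases, which 0.87% hold. Runs of 5 C were in 10.4% at a threshold of 2000. The cause of the other changes was not tested. With single spots and no replicate array, differences under about 0.16 on the log2 scale are smaller than the SD between spots. That SD came from 9 probes dimmer than the members in the supernatant. Larger differences can also lie within the spread.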

Other observations

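A short word was common to the 3 members brightest in the supernatant relative to the exosome array, and it was looked for after their values had been seen. Capitals mark its 11 bases.
TREML2: tccctggtgGTCCAGTGGTTaagaatctac
TMEM107: tccctggctGTCCAGTGGTTaggacccaac
CD3D: acagtgacttccctggcaGTCCAGTGGTTa
On the whole array 6 probes held the word, all in this orientation, and 5 of them were well above background on both arrays. Besides these 3, NXPE4 was a member, at 1841 in the supernatant and 4452 on the exosome array. SNRNP35 had 47.6 and 1927, and GNG7 had 6.36 and 956. The word was thus held by probes on both sides of equal signal. No test was possible with 1 array per fraction.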
